A study of Arabidopsis thaliana with 15 samples.

Results

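The LHCB1 and LHCB2 genes of Arabidopsis thaliana encode the main proteins of LHCII, the large light-harvesting antenna of photosystem II. They were taken by locus as 8 of the 33601 gene rows of the count table. The 5 LHCB1 genes are LHCB1.1 (AT1G29920), LHCB1.2 (AT1G29910), LHCB1.3 (AT1G29930), LHCB1.4 (AT2G34430) and LHCB1.5 (AT2G34420), and the 3 LHCB2 genes are LHCB2.1 (AT2G05100), LHCB2.2 (AT2G05070) and LHCB2.3 (AT3G27690). All 8 passed the filter on low counts, as did 18935 genes in all (a level above 1 CPM in 3 or more of the 15 libraries, where CPM stands for counts scaled to the library size). Since several copies are nearly identical, their counts were also summed, over the 5 LHCB1 genes, over the 3 LHCB2 genes and over smaller sets of close copies.

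The study sequenced polyadenylated RNA of whole rosettes from 5 genotypes, all in the Columbia-0 ecotype, with 3 libraries each. The genotypes were the double mutant ref4-3 cdk8-1, the single mutants ref4-3, ref4-1 and cdk8-1, and the wild type (WT). ref4-3 and ref4-1 are alleles of MED5B, a subunit in the tail of Mediator, which carries signals from DNA-bound regulators to the transcription machinery, and cdk8-1 is a mutant of CDK8, the cyclin-dependent kinase of the Mediator kinase module. All groups, WT included, were grown at 23 °C with 16 h of light and 8 h of dark and were cut at 20 days, 6.5 h after subjective dawn, and each library held a pool of 5 rosettes. The mutations are not limited to a tissue, and the same 3 WT libraries serve all 4 comparisons against WT.

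LHCB1 and LHCB2 proteins, together with LHCB3, form the trimers of LHCII, which bind chlorophyll a and chlorophyll b and pass absorbed energy to photosystem II. The kinase STN7 phosphorylates LHCB1 and LHCB2 when photosystem II is over-excited, and a part of LHCII then serves photosystem I, with phosphorylated LHCB2 as the docking protein. Transcription of these genes is induced by light, follows the circadian clock, needs the GLK transcription factors and falls when signals from a damaged chloroplast reach the nucleus.

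The libraries held between 9573567 and 16803904 counts in genes, with normalisation factors between 0.9373 and 1.081. CDK8 itself was at 6.58, 5.27 and 4.38 normalised CPM in ref4-3 cdk8-1 and at 4.39, 4.43 and 4.70 normalised CPM in cdk8-1, against 20.5, 18.0 and 19.9 normalised CPM in WT. The level of MED5B cannot check the ref4 alleles, which are point mutations. Replicates differed by more than sampling noise in every group, and the third ref4-1 library stood farthest from its group (its chi-square statistics over genes, divided by their degrees of freedom, were 11.46 and 14.67 against its 2 partners, and those of all remaining pairs lay between 2.671 and 6.195). That library was also the smallest. Relative to its gene counts it had the most reads that matched more than 1 place (6.62%).

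Close copies limit how far counts can be assigned to 1 gene, so the first 90 coding bases are shown for the closest sets. LHCB1.1 (chr1:10475803-10475892, minus strand), LHCB1.2 (chr1:10473157-10473246, minus strand) and LHCB1.3 (chr1:10478071-10478160, plus strand) lie next to each other in the TAIR10.1 assembly, with no other gene in the gaps of 1153 and 1915 bases. Capitals mark the bases that differ from LHCB1.1.
LHCB1.1: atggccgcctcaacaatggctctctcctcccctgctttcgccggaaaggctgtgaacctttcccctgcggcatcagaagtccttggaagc
LHCB1.2: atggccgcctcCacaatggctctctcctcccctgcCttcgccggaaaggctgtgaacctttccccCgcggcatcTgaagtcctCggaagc
LHCB1.3: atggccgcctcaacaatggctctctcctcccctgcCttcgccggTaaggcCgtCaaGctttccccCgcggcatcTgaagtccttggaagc
LHCB1.2 differs from LHCB1.1 at 5 and LHCB1.3 at 7 of these 90 bases. LHCB2.1 (chr2:1824242-1824331, minus strand) and LHCB2.2 (chr2:1800240-1800329, minus strand) are 22517 bases apart with 5 genes between them, and capitals mark the bases of LHCB2.1 that differ from LHCB2.2.
LHCB2.1: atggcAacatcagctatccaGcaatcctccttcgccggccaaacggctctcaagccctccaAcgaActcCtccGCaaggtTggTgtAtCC
LHCB2.2: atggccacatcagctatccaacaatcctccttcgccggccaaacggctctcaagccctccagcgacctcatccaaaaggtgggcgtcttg
The pair differs at 12 of these 90 bases.

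Over the whole coding sequence, LHCB1 copies were 86.8% to 96.4% identical to each other, LHCB2 copies 84.4% to 96.6%, and LHCB1 to LHCB2 70.1% to 73.2%. LHCB1.1 and LHCB1.2 encode the same protein of 267 residues, LHCB1.3 differs from both by 1 residue, and LHCB2.1 and LHCB2.2 differ by 6. LHCB1.4 and LHCB1.5 lie on chromosome 2, 1038 bases apart, and LHCB2.3, the copy farthest from the other LHCB2 genes, lies on chromosome 3. The LHCB1 genes have a single exon each and the LHCB2 genes have 2. Stretches of 50 transcript bases were searched for at a second place in the genome, on both strands, and in the other member transcripts. The share with no such match was 71.85% in LHCB2.2, 77.3% in LHCB2.1, 79.5% to 89.35% in the 5 LHCB1 genes and 100% in LHCB2.3. With stretches of 100 bases the shares were 87.6% to 100%. The read length is not given in the sources used here. Reads that matched more than 1 place are held in a row of their own, which equals 2.37% to 6.62% of a library's gene counts. Reads of the close pairs may therefore be missing from their rows, and how many came from each gene was not tested. LHCB1.3, LHCB1.5 and LHCB2.3 also overlap a protein-coding gene on the other strand by 108, 99 and 335 bases; these 3 neighbours had at most 856, 406 and 451 counts in any library. LHCB1.5 is also overlapped over 1045 bases by an annotated non-coding RNA on the other strand, AT2G08665, which has no row in the table analysed here. The library kit keeps the strand, but whether counting used it is not given in the sources used here, so reads of such partners cannot be told apart with certainty.

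The upstream sequences are shown for LHCB1.1, LHCB1.3 and the LHCB2 genes, because LHCB1.1 and LHCB1.3 had the largest and the smallest change in ref4-3 and the LHCB2 genes the largest changes in cdk8-1. Each is the 150 bases before the annotated transcript start (TAIR10.1). They are chr1:10475970-10476119 on the minus strand for LHCB1.1, chr1:10477735-10477884 on the plus strand for LHCB1.3, chr2:1824481-1824630 and chr2:1800473-1800622 on the minus strand for LHCB2.1 and LHCB2.2, and chr3:10255791-10255940 on the plus strand for LHCB2.3. Capitals mark CCAATC, a motif bound by GLK factors, CACGTG, the G-box of light-regulated promoters, and AAAAATCT, a motif bound by the clock factor CCA1.
LHCB1.1: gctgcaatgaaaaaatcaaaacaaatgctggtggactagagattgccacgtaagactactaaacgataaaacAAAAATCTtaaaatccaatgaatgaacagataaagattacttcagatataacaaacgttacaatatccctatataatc
LHCB1.3: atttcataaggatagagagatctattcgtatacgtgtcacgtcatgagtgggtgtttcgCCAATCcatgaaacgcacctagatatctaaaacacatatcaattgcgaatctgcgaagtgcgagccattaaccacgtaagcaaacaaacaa
LHCB2.1: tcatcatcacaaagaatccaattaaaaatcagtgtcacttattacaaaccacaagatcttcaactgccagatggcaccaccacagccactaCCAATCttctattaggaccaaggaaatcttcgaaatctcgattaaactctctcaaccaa
LHCB2.2: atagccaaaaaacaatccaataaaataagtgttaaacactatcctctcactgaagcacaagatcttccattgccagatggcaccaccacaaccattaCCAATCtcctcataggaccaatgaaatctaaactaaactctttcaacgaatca
LHCB2.3: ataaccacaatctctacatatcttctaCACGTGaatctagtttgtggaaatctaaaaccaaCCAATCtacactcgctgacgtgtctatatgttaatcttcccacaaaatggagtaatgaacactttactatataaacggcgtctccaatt
All 3 LHCB2 promoters carry CCAATC between 48 and 89 bases before the start.

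Over the 250 bases before the start, on both strands, CCAATC was found in 5 of the 8 promoters (LHCB1.3, LHCB1.5 and the 3 LHCB2 genes), against 10.21% of 27406 promoters. CACGTG was found in LHCB2.3 alone among the 8 (6.57% of promoters), and GATAAG, the I-box core of light-regulated promoters, in LHCB2.1 alone (12.42%). AAAAATCT was found in LHCB1.1 and LHCB1.4 (6.65%), and AAAATATCT, the evening element of clock-regulated promoters, in none of the 8 (2.35%). TATAAA, the TATA box, was found in LHCB1.5 and LHCB2.3 (47.21%). None of the matches in these windows overlapped another. Annotated starts lie 55 to 256 bases before the ATG, so the 300 bases before the ATG were searched as well: CCAATC was again in the same 5 genes (13.84% of all such windows), and CACGTG (6.21%) and AAAATATCT (2.28%) were again in LHCB2.3 alone and in none. The other matches changed with the window: AAAAATCT was in LHCB1.1, LHCB1.3 and LHCB1.4 (8.01%), GATAAG in LHCB1.3, LHCB1.4 and LHCB2.1 (15.43%), and TATAAA in LHCB1.4, LHCB1.5 and the 3 LHCB2 genes (46.9%). In these windows LHCB1.1 and LHCB1.2 were 77.6% identical and LHCB2.1 and LHCB2.2 77.4%. These are matches of letters only.

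In WT the 8 genes together took 2.21 ± 0.126% of all gene counts (SD, n = 3). Per kilobase of transcript, LHCB1.3 was the highest of them in WT at 9717 ± 672 normalised CPM per kb, followed by LHCB1.5 at 3626 ± 396, LHCB1.2 at 2290.1 ± 151 and LHCB1.1 at 1670.0 ± 22.7 normalised CPM per kb. LHCB1.4 followed at 841 ± 156 normalised CPM per kb, then LHCB2.2 at 641 ± 54.9, LHCB2.1 at 424 ± 35.1 and LHCB2.3 at 119 ± 11.5 normalised CPM per kb (SD, n = 3 each). No neighbours in this order overlapped between the 3 WT libraries. The order was the same in ref4-3 and in ref4-1, where LHCB1.4 and LHCB2.2 overlapped in ref4-1 (441 ± 94.0 and 384 ± 40.6 normalised CPM per kb). In ref4-3 cdk8-1, LHCB1.4 (527 ± 47.8 normalised CPM per kb) was below both LHCB2.2 (1074 ± 64.5) and LHCB2.1 (707 ± 38.0). In cdk8-1, LHCB2.2 (1512 ± 105.0 normalised CPM per kb) stood above LHCB1.4 (1236 ± 136), which overlapped with LHCB2.1 (1087 ± 18.6).

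**Figure D1:**
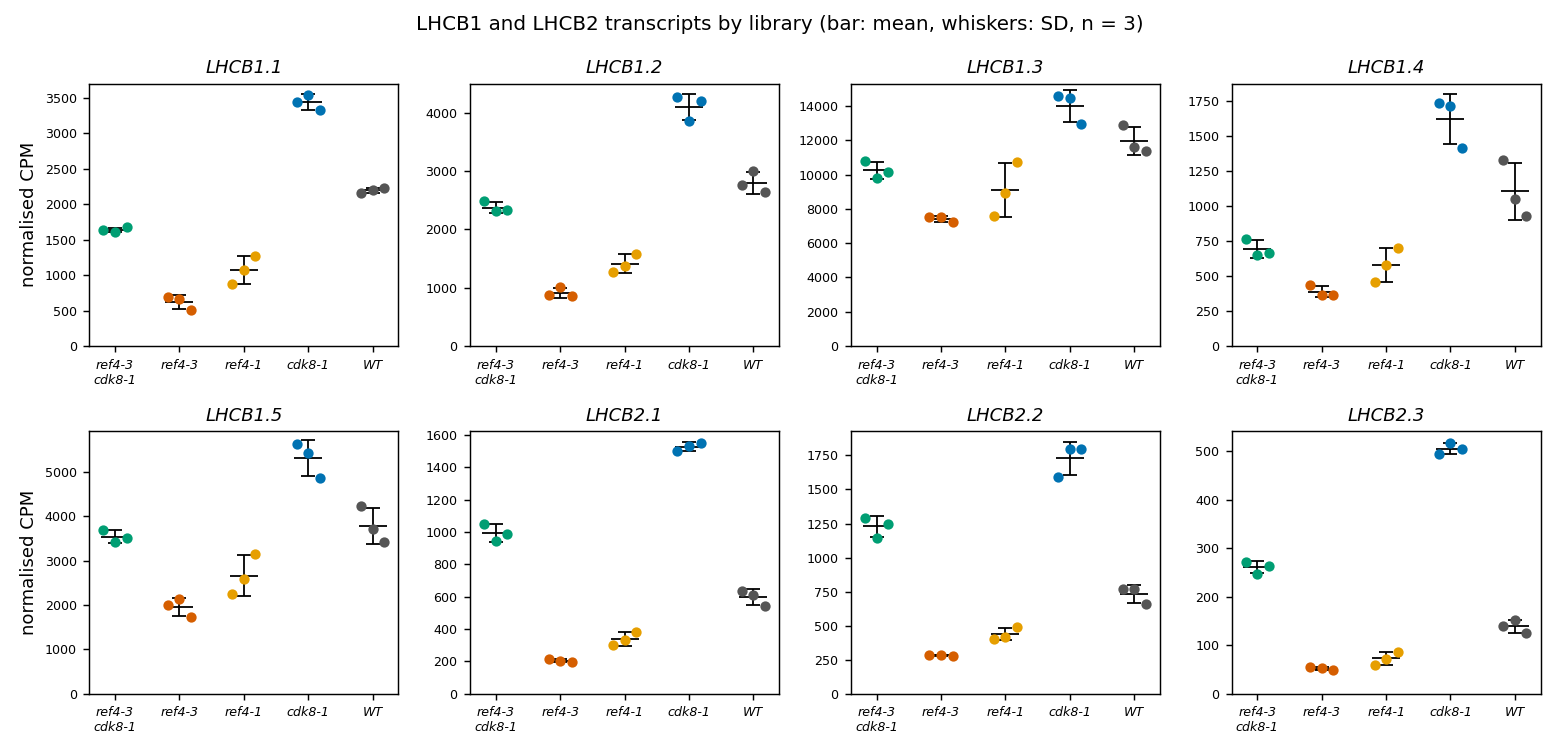
Normalised CPM (linear axes from 0) of each of the 8 genes in the 15 libraries; points are libraries, the horizontal bar is the mean and the whiskers the SD of 3 libraries. Every gene is lowest in ref4-3 and highest in cdk8-1, and the 3 LHCB2 genes, unlike the LHCB1 genes, lie above WT in ref4-3 cdk8-1.

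The LHCB1 genes are given first, by library. LHCB1.1 was at 1639, 1612 and 1672 normalised CPM in ref4-3 cdk8-1, at 692, 665 and 503 in ref4-3, at 874, 1076 and 1268 in ref4-1 and at 3444, 3544 and 3325 in cdk8-1, against 2163, 2198 and 2222 normalised CPM in WT. The 5 genotypes did not overlap for this gene, with ref4-3 lowest and cdk8-1 highest. Of all genes tested, 32.6% did not overlap between ref4-1 and WT, 49.9% between ref4-3 and WT and 36.3% between cdk8-1 and WT. The share of genes with no overlap among all 5 genotypes was not counted. LHCB1.2, which encodes the same protein, was at 2479, 2308 and 2328 normalised CPM in ref4-3 cdk8-1, at 867, 1008 and 854 in ref4-3, at 1277, 1379.8 and 1586 in ref4-1 and at 4263, 3854 and 4199.6 in cdk8-1, against 2761, 3002 and 2639 normalised CPM in WT. LHCB1.2 had the same order of genotypes and no overlap. LHCB1.3, the most abundant copy, was at 10780.1, 9826 and 10149 normalised CPM in ref4-3 cdk8-1, at 7514, 7502 and 7216 in ref4-3, at 7597, 8908 and 10741 in ref4-1 and at 14612, 14452 and 12945 in cdk8-1, against 12897, 11587 and 11369.8 normalised CPM in WT. Here the steps between genotypes were smaller, and ref4-1 ran into the range of ref4-3 cdk8-1. The third ref4-1 library, which stands apart, was the highest of its group for all 8 genes.

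LHCB1.4 was at 764, 648 and 664 normalised CPM in ref4-3 cdk8-1, at 433, 364 and 363 in ref4-3, at 455, 579 and 701 in ref4-1 and at 1734, 1716 and 1417 in cdk8-1, against 1328, 1053 and 928 normalised CPM in WT. LHCB1.5 was at 3704, 3422 and 3519.7 normalised CPM in ref4-3 cdk8-1, at 1998, 2128 and 1729 in ref4-3, at 2250.5, 2585 and 3164 in ref4-1 and at 5646, 5442 and 4872 in cdk8-1, against 4237, 3707 and 3423 normalised CPM in WT. LHCB1.4 overlapped between ref4-1 and ref4-3 cdk8-1, and LHCB1.5 is the only one of the 8 whose double mutant and WT libraries overlapped; over all genes tested, 53% did not overlap between these 2 groups. The sum of the 5 LHCB1 genes averaged 18498 normalised CPM in ref4-3 cdk8-1, 11289 in ref4-3, 14788 in ref4-1 and 28527 in cdk8-1, against 21828 normalised CPM in WT.

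For LHCB2, the double mutant stood above WT instead of below it. LHCB2.1 was at 1049.7, 943 and 987 normalised CPM in ref4-3 cdk8-1, at 216, 201 and 197 in ref4-3, at 302, 334 and 385 in ref4-1 and at 1500.4, 1532 and 1552 in cdk8-1, against 638, 609.9 and 542 normalised CPM in WT. LHCB2.2 was at 1291, 1147 and 1246 normalised CPM in ref4-3 cdk8-1, at 282, 286 and 275 in ref4-3, at 405, 420.3 and 492 in ref4-1 and at 1589, 1794 and 1800.3 in cdk8-1, against 767, 770.4 and 660.2 normalised CPM in WT. Both genes ran, without overlap, in the order ref4-3, ref4-1, WT, ref4-3 cdk8-1 and cdk8-1. LHCB2.3, the least abundant of the 8 and the copy with no 50-base stretch in common with another of the 8 transcripts, was at 272, 247 and 264 normalised CPM in ref4-3 cdk8-1, at 55.01, 52.15 and 49.1 in ref4-3, at 59.9, 72.01 and 86.5 in ref4-1 and at 494, 517 and 505 in cdk8-1, against 140.2, 152 and 125 normalised CPM in WT. It followed the same order, also without overlap. Over all genes tested, the share without overlap was 27.9% between ref4-3 and ref4-1 and 32.6% between ref4-1 and WT. Between ref4-3 cdk8-1 and WT it was 53%, and between ref4-3 cdk8-1 and cdk8-1 it was 48.5%.

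In ref4-3, all 8 genes were lower than in WT. The fall was largest in LHCB1.1 (log2 fold change -1.82 ± 0.117 SE, adjusted p = 1.14e-09, edgeR quasi-likelihood test with Benjamini-Hochberg adjustment over all genes), which was left at 28.3% of its WT level, and in LHCB1.2 (-1.62 ± 0.0880), at 32.5%. LHCB1.3 fell least (-0.69 ± 0.0996, adjusted p = 2.65e-05) and kept 62.0% of its WT level, followed by LHCB1.5 (-0.96 ± 0.112) at 51.5%. LHCB1.4 (-1.51 ± 0.144), LHCB2.1 (-1.54 ± 0.0840), LHCB2.2 (-1.38 ± 0.0842) and LHCB2.3 (-1.41 ± 0.102) lay between. Of all genes tested 39.9% were called in ref4-3, 20.3% higher and 19.6% lower, and the median log2 fold change was -1.46 over the 8 and 0.02 over all genes. The libraries of ref4-3 and WT did not overlap for any of the 8, as was so for 49.9% of all genes. Summed, LHCB1 fell by 0.95 on the log2 scale (SE 0.0977) to 51.7% of WT and LHCB2 fell by 1.45 (SE 0.0830) to 36.7% of WT. In bulk rosettes, fewer cells of a type and less RNA per cell cannot be told apart.

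In ref4-1, the other MED5B allele, all 8 genes were lower than in WT, where 20.9% of all genes were called, 10.7% higher and 10.2% lower, with a median log2 fold change of -0.87 over the 8 against 0.02 over all genes. LHCB1.1 (-1.03 ± 0.114, adjusted p = 3.56e-06), LHCB1.2 (-0.99 ± 0.0866), LHCB2.3 (-0.94 ± 0.0996) and LHCB1.4 (-0.93 ± 0.142) fell most, and LHCB1.3 fell least (-0.40 ± 0.0993, adjusted p = 0.00774, edgeR quasi-likelihood test). When only the ref4-1 and WT libraries were fitted, LHCB1.3 no longer passed (adjusted p = 0.0943).

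Set against ref4-1 directly, ref4-3 had lower levels of 7 of the 8 genes, where 10.9% of all genes were called, 4.52% higher and 6.39% lower. LHCB1.1 (-0.79 ± 0.114, adjusted p = 0.000333) and LHCB2.1 (-0.73 ± 0.0830, adjusted p = 2.99e-05) differed most between the alleles, and LHCB1.3 (-0.29 ± 0.0993, adjusted p = 0.0653, edgeR quasi-likelihood test) did not pass. It passed without a low-count filter (adjusted p = 0.0377), with DESeq2 (adjusted p = 0.0216) and without the first ref4-1 library (-0.41, adjusted p = 0.00831). Without the third ref4-1 library the LHCB1.3 difference was -0.15 (adjusted p = 0.246), and in a fit of these 2 groups alone its adjusted p was 0.255. The calls for LHCB1.4, LHCB1.5 and LHCB2.3 were lost in a fit of these 2 groups alone (adjusted p = 0.0584, 0.0985 and 0.0585), and those for LHCB1.4 and LHCB1.5 also without the third ref4-1 library (adjusted p = 0.0601 and 0.0534) or the third ref4-3 library (adjusted p = 0.0684 and 0.0852). LHCB1.4 was lost without the second ref4-3 library too (adjusted p = 0.0522).

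In cdk8-1, 7 of the 8 genes were higher than in WT, where 19.8% of all genes were called, 8.06% higher and 11.8% lower, and the 3 LHCB2 genes rose more than any LHCB1 gene. LHCB2.3 rose most (1.86 ± 0.0981, adjusted p = 3.83e-10, edgeR quasi-likelihood test), 3.64-fold, followed by LHCB2.1 (1.36 ± 0.0828) at 2.56-fold and LHCB2.2 (1.24 ± 0.0833) at 2.36-fold. The 4 LHCB1 genes that passed rose by 0.49 to 0.65 on the log2 scale, with LHCB1.1 first (0.65 ± 0.113, adjusted p = 0.000428) and LHCB1.5 last (0.49 ± 0.111, adjusted p = 0.00373). LHCB1.3 had a log2 fold change of 0.23 ± 0.0992 (95% interval 0.03 to 0.42, adjusted p = 0.121), and it passed in a fit of the 2 groups alone (adjusted p = 0.0294) and without the first or the third ref4-1 library (adjusted p = 0.0499 and 0.0177). Summed, LHCB1 rose to 130.7% (0.39 ± 0.0970, adjusted p = 0.00813) and LHCB2 to 256.7% of WT (1.36 ± 0.0825, adjusted p = 2.85e-09). The median log2 fold change was 0.60 over the 8 and 0.00 over all genes.

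**Figure D2:**
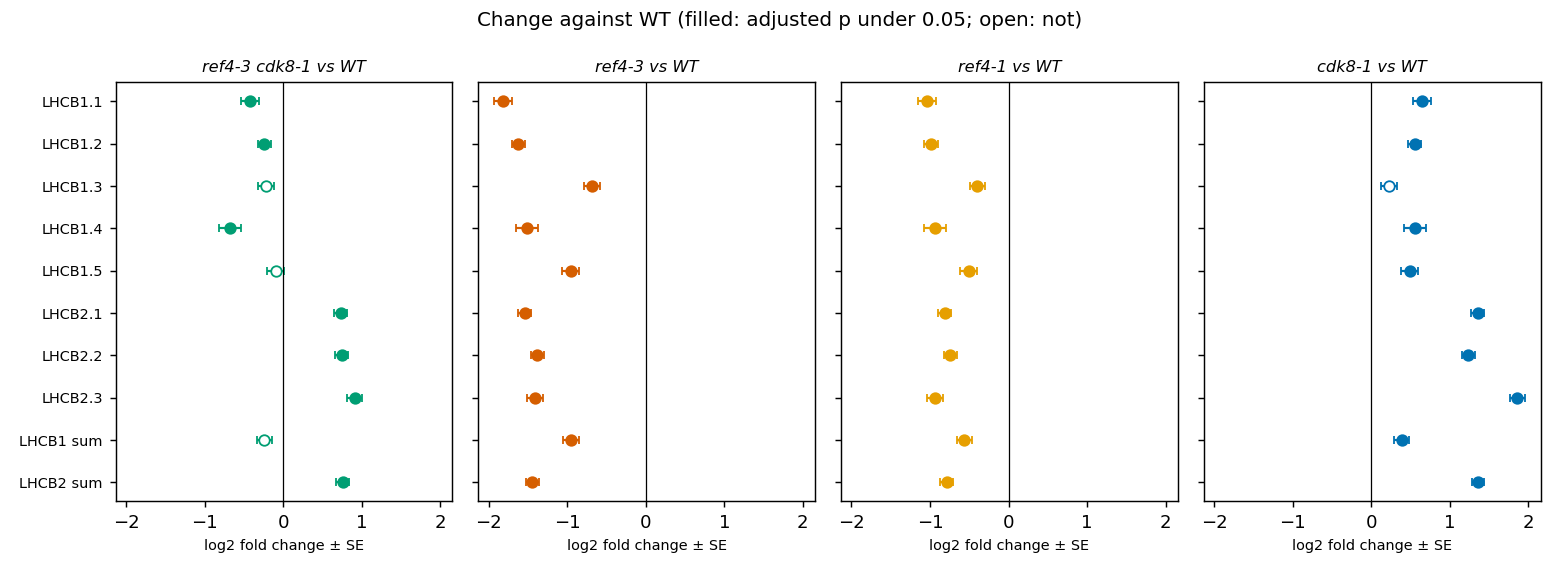
Log2 fold change ± SE against WT of the 8 genes and of the summed LHCB1 and LHCB2 rows, 1 panel per mutant, from the edgeR fit; filled points passed an adjusted p of 0.05 and open points did not. All points lie left of 0 in ref4-3 and ref4-1 and right of 0 in cdk8-1, and LHCB1 and LHCB2 lie on different sides of 0 in ref4-3 cdk8-1.

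The double mutant ref4-3 cdk8-1 was compared with each parent. Against ref4-3, all 8 genes were higher, where 33.0% of all genes were called, 15.9% higher and 17.0% lower. LHCB2.3 (2.32 ± 0.102, 5.01-fold), LHCB2.1 (2.28 ± 0.0857, 4.85-fold) and LHCB2.2 (2.13 ± 0.0859, 4.37-fold) rose most, with adjusted p of at most 3.16e-11 (edgeR quasi-likelihood test). LHCB1.1 (1.404 ± 0.115) and LHCB1.2 (1.38 ± 0.0874) followed, and LHCB1.3 rose least (0.47 ± 0.0994, adjusted p = 0.00126). Against cdk8-1, all 8 genes were lower, where 32.8% of all genes were called, 16.4% in each direction. LHCB1.4 (-1.23 ± 0.142), LHCB1.1 (-1.07 ± 0.114) and LHCB2.3 (-0.95 ± 0.0949) fell most, and LHCB1.3 (-0.45 ± 0.0993, adjusted p = 0.00189) and LHCB2.2 (-0.49 ± 0.0822) fell least. The libraries of the double mutant did not overlap with those of either parent for any of the 8, as was so for 46.8% of all genes against ref4-3 and 48.5% against cdk8-1.

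Against WT, the double mutant split the family. The 3 LHCB2 genes were higher, where 42.6% of all genes were called, 21.0% higher and 21.6% lower. The rise was largest in LHCB2.3, at 0.91 ± 0.0965 (adjusted p = 5.47e-07), followed by LHCB2.2 at 0.75 ± 0.0826 and LHCB2.1 at 0.74 ± 0.0818 on the log2 scale. LHCB1.4 (-0.67 ± 0.141, adjusted p = 0.000855), LHCB1.1 (-0.42 ± 0.113, adjusted p = 0.00611) and LHCB1.2 (-0.24 ± 0.0858, adjusted p = 0.0314) were lower. LHCB1.3 (-0.22 ± 0.0992, adjusted p = 0.0819) and LHCB1.5 (-0.09 ± 0.111, adjusted p = 0.520) did not pass. LHCB1.3 passed with DESeq2 (adjusted p = 0.0370), in a fit of the 2 groups alone (adjusted p = 0.0131) and without ref4-1 library 1 or 3 (adjusted p = 0.0314 and 0.0117). The call for LHCB1.2 was lost without the first or second WT library (adjusted p = 0.0523 and 0.131), without double mutant library 2 or 3 (adjusted p = 0.0969 and 0.0855) and with library totals in place of normalisation factors (-0.12, adjusted p = 0.198). With library totals LHCB1.5 also changed sign (0.03).

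The LHCB1 and LHCB2 sums lay on different sides of WT, but of these only the LHCB2 sum passed. LHCB2 was at 2602, 2349 and 2494 normalised CPM in ref4-3 cdk8-1, against 1543, 1534 and 1325 normalised CPM in WT, a rise to 169.1% (0.76 ± 0.0815, adjusted p = 6.89e-07, edgeR quasi-likelihood test). LHCB1 was at 19283, 17903 and 18308 normalised CPM in ref4-3 cdk8-1, against 23354, 21579.8 and 20551 normalised CPM in WT; the double mutant lay below WT without overlap, at 84.7%, but did not pass (-0.24 ± 0.0969, adjusted p = 0.0555). Among the smaller sums, LHCB1.1+LHCB1.2+LHCB1.3 was called lower (-0.25 ± 0.0924, adjusted p = 0.0381), a call lost without any one of the WT libraries 1 and 2 (adjusted p = 0.122 and 0.0697), the 3 double mutant libraries (adjusted p = 0.0542, 0.1249 and 0.0955), the first ref4-3 library (adjusted p = 0.0516) and the second cdk8-1 library (adjusted p = 0.0504). It was also lost with library totals (adjusted p = 0.205), with upper-quartile scaling (adjusted p = 0.0604) and with a replicate block (adjusted p = 0.0511). LHCB1.4+LHCB1.5 did not pass (-0.21 ± 0.113, adjusted p = 0.156), and LHCB2.1+LHCB2.2 was called higher (0.74 ± 0.0803, adjusted p = 7.54e-07).

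Whether the effect of ref4-3 differed between the cdk8-1 and the WT background was tested as an interaction in the same fit. It was positive for LHCB2.1 (0.92 ± 0.116, adjusted p = 0.000192), LHCB2.2 (0.89 ± 0.117, adjusted p = 0.000253), LHCB1.2 (0.83 ± 0.122, adjusted p = 0.000654) and LHCB1.1 (0.76 ± 0.160, adjusted p = 0.00998, edgeR quasi-likelihood test), that is 4 of the 8, where 5.13% of all genes were called, 3.07% positive and 2.05% negative. On the log2 scale, which compares ratios, ref4-3 lowered these 4 genes less when CDK8 was also mutated. LHCB2.1 fell by 0.62 in the cdk8-1 background and by 1.54 in the WT background on that scale. Its mean went from 1087 to 707 normalised CPM per kb in the cdk8-1 background and from 424 to 146 in the WT background. For LHCB1.2 these means went from 3357 to 1939 and from 2290.1 to 744. The larger step in CPM was thus in the cdk8-1 background for LHCB2.1 and in the WT background for LHCB1.2. Steps in CPM were not tested. LHCB2.3 (0.46 ± 0.138, adjusted p = 0.0602), LHCB1.5 (0.37 ± 0.156, adjusted p = 0.187), LHCB1.4 (0.28 ± 0.199, adjusted p = 0.470) and LHCB1.3 (0.24 ± 0.140, adjusted p = 0.370) did not pass. LHCB2.3 passed without the third WT library (adjusted p = 0.0416) and without ref4-1 library 1 or 3 (adjusted p = 0.0220 and 0.0121). It also passed without a low-count filter (adjusted p = 0.0315), with DESeq2 (adjusted p = 0.0233) and in a fit of the groups concerned alone (adjusted p = 0.00739). Summed, the interaction was 0.84 ± 0.115 for LHCB2 (adjusted p = 0.000368) and 0.33 ± 0.137 for LHCB1 (adjusted p = 0.189).

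**Figure D3:**
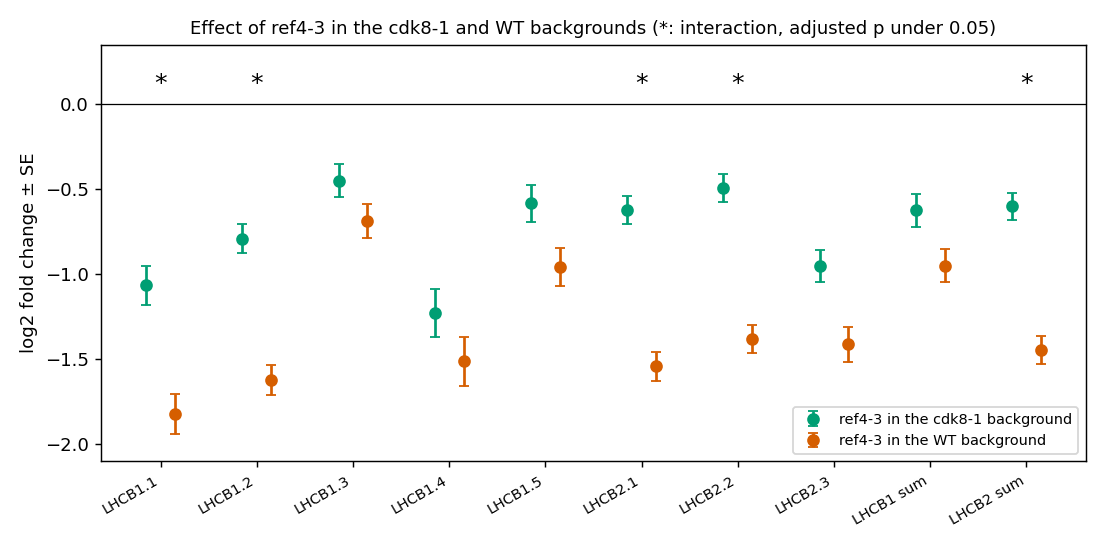
Log2 fold change ± SE of ref4-3 in the cdk8-1 background (ref4-3 cdk8-1 over cdk8-1, left point of each pair) and in the WT background (ref4-3 over WT, right point) for the 8 genes and the sums; asterisks mark an interaction with an adjusted p under 0.05. All effects lie below 0, and those in the cdk8-1 background lie closer to 0 for each gene.

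The make-up of the family differed between genotypes. LHCB2 counts per 100 LHCB1 counts were 13.4 ± 0.262 in ref4-3 cdk8-1, 4.77 ± 0.136 in ref4-3, 5.79 ± 0.331 in ref4-1 and 13.2 ± 1.17 in cdk8-1, against 6.72 ± 0.346 in WT (SD, n = 3 each). The double mutant and cdk8-1 overlapped in this ratio, and both lay above every other library. An exact permutation test of the one-way F statistic over all 1401400 partitions of the 15 libraries gave p = 2.50e-05 (3.75e-05 after Benjamini-Hochberg adjustment over 9 quantities); it tests whether any genotype differs, and a comparison of 3 against 3 libraries could not go below a two-sided p of 0.1.

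LHCB1.3 alone made up 48.8 ± 0.178% of the 8 genes' counts in ref4-3 cdk8-1, 62.8 ± 1.57% in ref4-3, 57.9 ± 0.425% in ref4-1 and 43.4 ± 0.962% in cdk8-1, against 51.3 ± 0.930% in WT. LHCB1.1 made up 7.83 ± 0.320% in ref4-3 cdk8-1, 5.23 ± 0.650% in ref4-3, 6.84 ± 0.201% in ref4-1 and 10.7 ± 0.277% in cdk8-1, against 9.45 ± 0.737% in WT. In ref4-3 and ref4-1 the LHCB1.3 share was above WT and the LHCB1.1 share below it, in cdk8-1 the reverse held, and in ref4-3 cdk8-1 both shares lay below WT, each without overlap. For both genes the exact permutation p was 7.14e-07, the smallest that the design can give (adjusted p = 3.21e-06). LHCB2.3 made up 1.24 ± 0.0213% in ref4-3 cdk8-1, 0.441 ± 0.0146% in ref4-3, 0.464 ± 0.00931% in ref4-1 and 1.57 ± 0.0825% in cdk8-1, against 0.597 ± 0.0531% in WT (exact permutation test, adjusted p = 4.28e-06). LHCB1.5 kept 16.2% to 17.0% in all 5 genotypes, and its share did not differ detectably (exact permutation p = 0.510). The other 4 shares, those of LHCB1.2, LHCB1.4, LHCB2.1 and LHCB2.2, differed with exact permutation adjusted p of 0.000714 or less. All 8 together took 2.16 ± 0.0774% of gene counts in ref4-3 cdk8-1, 1.25 ± 0.0406% in ref4-3, 1.58 ± 0.241% in ref4-1 and 3.08 ± 0.141% in cdk8-1, against the 2.21% in WT.

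**Figure D4:**
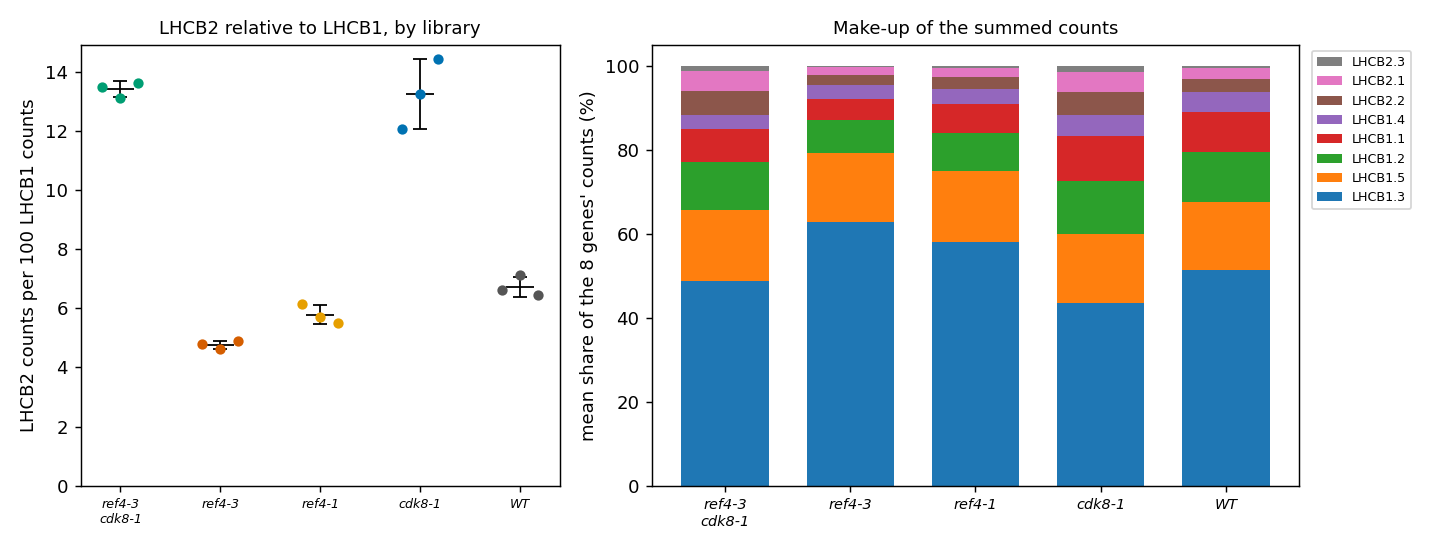
Left, LHCB2 counts per 100 LHCB1 counts in each library (points) with mean and SD of 3 libraries; right, mean share of each gene in the summed counts of the 8, in percent. The 6 libraries with mutated CDK8 lie between 12.1 and 14.4 LHCB2 counts per 100 LHCB1 counts and the other 9 between 4.62 and 7.11; LHCB1.3 takes its largest share in ref4-3 and its smallest in cdk8-1.

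Across the 15 libraries the 8 genes moved together, more closely within a class than across classes. Pearson correlations of log2 normalised CPM were 0.945 to 0.988 among LHCB1 genes, 0.990 to 0.999 among LHCB2 genes and 0.830 to 0.943 between the classes; these points share libraries, depth and genotype, and the values are a description. Among 15049 other genes averaging 5 CPM or more, the 6 whose pattern over the 15 libraries was most like the mean of the 8 were LHCB3 (r = 0.994), which joins LHCB1 and LHCB2 in the LHCII trimer, GUN5 (0.993), which encodes the CHLH subunit of magnesium chelatase, AT1G74470 (0.991), named in the annotation as geranylgeranyl reductase, AT3G15450 (0.990), the clock gene PRR5 (0.990) and LHCB4.2 (0.988), a minor antenna protein. By Spearman's rho GUN5 ranked first (0.989) and PRR5 had rank 262 (0.886). The median r over the compared genes was 0.00, and 2.46% of them had r above 0.9. The lowest correlations were those of AT5G13200 (r = -0.982), AT5G04920 (-0.979), named VPS36 in the annotation, and ALIS1 (-0.977).

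Beside the 8, 13 other antenna genes were followed: LHCB3, the minor antenna proteins of photosystem II and the LHCA proteins of photosystem I. In ref4-3, 10 of the 13 fell and 2 rose against WT, with a median log2 fold change of -0.72 where the 8 had -1.46. LHCB3 (-1.26 ± 0.0818) and, in photosystem I, LHCA1 (-1.11 ± 0.0750) and LHCA4 (-1.03 ± 0.0727) fell most, and the 2 that rose were LHCB4.3 (0.80 ± 0.113) and LHCB7 (0.44 ± 0.107). In ref4-1 8 fell and 1 rose, with LHCB3 at -0.71 and LHCB4.3 at 0.85. In cdk8-1 6 of the 13 rose (median 0.21): LHCB3 (0.59 ± 0.0807), LHCB4.2 (0.52 ± 0.0735), LHCA1 (0.38), LHCA4 (0.29), LHCB6 (0.28) and LHCB5 (0.26). In ref4-3 cdk8-1 2 rose and 4 fell against WT; LHCB3, the partner of LHCB1 and LHCB2 in the trimer, was at 3523, 3226 and 3337 normalised CPM in ref4-3 cdk8-1, against 3288, 3629 and 3186 normalised CPM in WT, and its libraries overlapped (log2 fold change -0.00 ± 0.0805, adjusted p = 0.984). Of all genes, 39.9% were called against WT for ref4-3, 20.9% for ref4-1, 19.8% for cdk8-1 and 42.6% for the double mutant. The count of called antenna genes in the double mutant was near that last share. Against ref4-3, where 33.0% of all genes were called, the double mutant had 9 of the 13 higher, with LHCB3 (1.25) and LHCB4.2 (1.02) first. In that comparison 1 was lower, LHCB4.3 (-0.71).

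**Figure D5:**
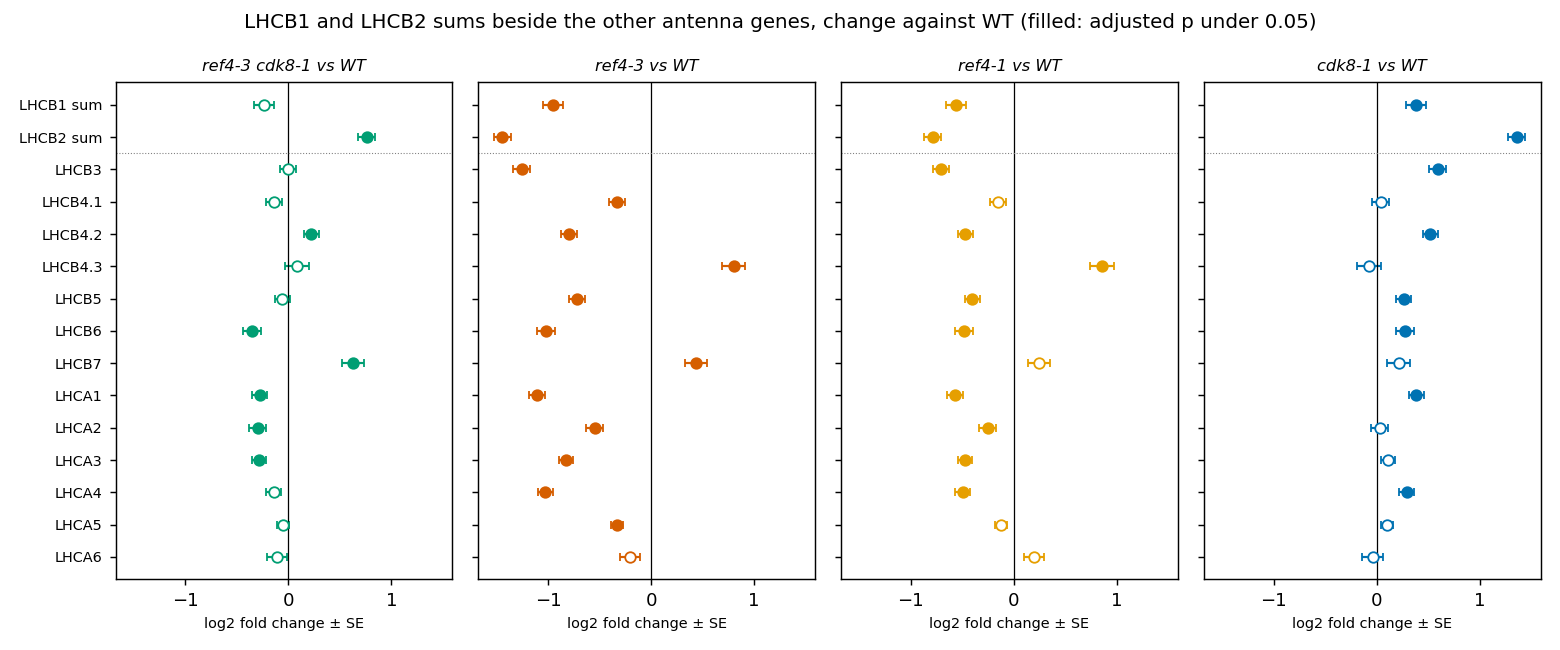
Log2 fold change ± SE against WT of the LHCB1 and LHCB2 sums (above the dotted line) and of 13 other antenna genes, 1 panel per mutant; filled points passed an adjusted p of 0.05. The LHCB2 sum has the largest change of the 15 rows in ref4-3, cdk8-1 and ref4-3 cdk8-1, and LHCB4.3 and LHCB7 lie right of 0 in ref4-3.

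Chlorophyll synthesis genes supply the pigment that the antenna binds. In ref4-3, where 39.9% of all genes were called, 14 of 15 fell against WT and none rose, with a median log2 fold change of -0.57. PORB, a protochlorophyllide reductase, fell most among the named ones (-0.99, adjusted p = 1.399e-09), followed by CHLI2, a magnesium chelatase subunit (-0.75), HEMA1, the enzyme that opens the pathway (-0.69), and CRD1, the cyclase (-0.68). In ref4-1 10 of 15 fell, in cdk8-1 6 rose and none fell, and in the double mutant 1 rose and 6 fell against WT while 13 rose and none fell against ref4-3. Of all genes, 20.9% were called in ref4-1, 19.8% in cdk8-1 and 42.6% in the double mutant, and 33.0% against ref4-3. CAO, the enzyme that makes chlorophyll b, was singled out after its values were seen: it was at 132, 120.3 and 118 normalised CPM in ref4-3 cdk8-1 and at 142, 144 and 143 in cdk8-1, against 83.3, 81.0 and 88.4 normalised CPM in WT. It was thus higher than WT in both genotypes with mutated CDK8 (0.55, adjusted p = 2.15e-06, and 0.77, adjusted p = 1.86e-07, edgeR quasi-likelihood test). In ref4-3, all 15 genes, CAO included, had log2 fold changes against WT between -0.99 and -0.20.

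Log2 fold changes of 10 genes for import and regulation of antenna proteins lay between -0.51 and 0.35 in the 4 comparisons against WT. Of these, 1 rose and 4 fell in ref4-3, 1 rose and 2 fell in ref4-1, 2 rose in cdk8-1, and 4 rose and 3 fell in ref4-3 cdk8-1, each against WT. The shares of all genes called were 39.9%, 20.9%, 19.8% and 42.6% in the same order. The counts in ref4-3, ref4-1 and cdk8-1 were near those shares. In ref4-3, LTD (-0.51), which guides antenna proteins through the chloroplast stroma, ALB3 (-0.25), which inserts them into the thylakoid, and CPFTSY (-0.23), a receptor of that route, fell, while TAP38 (0.18), the phosphatase that acts on LHCII, rose.

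Among 15 regulators of antenna genes, 14 were tested. Against WT, 8 rose and 1 fell in ref4-3 cdk8-1, 5 rose and 3 fell in ref4-3, 5 rose and 3 fell in ref4-1, and 5 rose and none fell in cdk8-1. The shares of all genes called were 42.6%, 39.9%, 20.9% and 19.8% in the same order. GLK2 was at 48.4, 43.2 and 43.9 normalised CPM in ref4-3 cdk8-1, at 25.6, 21.9 and 22.2 in ref4-3, at 25.7, 27.4 and 35.2 in ref4-1 and at 64.6, 56.9 and 62.3 in cdk8-1, against 45.4, 38.9 and 38.5 normalised CPM in WT. GLK2, an activator of antenna genes, therefore fell in ref4-3 (-0.81, adjusted p = 7.75e-06) and ref4-1 (-0.49), rose in cdk8-1 (0.58, adjusted p = 0.000321, edgeR quasi-likelihood test) and did not pass in the double mutant (0.14, adjusted p = 0.269). Its paralog GLK1 passed in none of the 4 comparisons against WT (log2 fold changes of -0.10 to 0.16).

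HY5, a light-signalling activator, rose in ref4-3 (1.05) and ref4-1 (1.22), where the antenna genes fell. PIF3, a repressor of chloroplast genes in the dark, rose in ref4-3 cdk8-1 (1.61), ref4-3 (1.299) and ref4-1 (0.72), and PIF4, of the same family, fell in ref4-3 (-0.78) and ref4-1 (-0.56) and rose in cdk8-1 (0.26). CGA1, a GATA factor that promotes greening, rose in ref4-3 (1.57) and ref4-1 (0.75). The clock genes CCA1 (0.89, adjusted p = 0.00832) and LHY (1.00, adjusted p = 0.0283, edgeR quasi-likelihood test) were higher in the double mutant than in WT, at levels of no more than 3.65 and 2.26 normalised CPM in any library.

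The summed mesophyll, xylem and root markers moved with the antenna genes in part. The summed level of 5 mesophyll markers (RBCS1A, RBCS3B, RCA, CA1 and GAPA) ranged over 21060 to 22080 normalised CPM in ref4-3 cdk8-1, 18060 to 20170 in ref4-3, 19680 to 24940 in ref4-1 and 31230 to 33210 in cdk8-1, against 26090 to 28890 normalised CPM in WT; 5 of the 5 were called lower in the double mutant, 4 in ref4-3 and 3 in ref4-1, and 2 higher in cdk8-1. The 3 xylem markers summed to 78.7 to 108 normalised CPM in ref4-3 cdk8-1, 34.3 to 54.4 in ref4-3, 37.6 to 47.7 in ref4-1 and 103 to 113 in cdk8-1, against 64.0 to 68.5 normalised CPM in WT. The 3 root markers, of which PYK10 alone was tested, summed to 168 to 208 normalised CPM in ref4-3 cdk8-1, 128 to 150.5 in ref4-3, 122 to 182 in ref4-1 and 318 to 390.0 in cdk8-1, against 174 to 245 normalised CPM in WT, and the defining root genes RHS2 and PRX72 had at most 11 and 9 counts in any library. Flower and seed markers had at most 26 and 6 counts per gene. Of the 5 epidermis markers, 3 were lower in ref4-3 cdk8-1, 4 in ref4-3 and 4 in ref4-1, and 1 was higher and 1 lower in cdk8-1, each against WT. Of the 4 guard cell markers 1 was higher and 1 lower in ref4-3 cdk8-1, in ref4-3 and in cdk8-1, and none was called in ref4-1; of the 3 phloem markers 1 was higher and 1 lower in ref4-3 cdk8-1, ref4-3 and ref4-1, and 1 was lower in cdk8-1. These counts of called markers stand beside 42.6% of all genes called in ref4-3 cdk8-1, 39.9% in ref4-3, 20.9% in ref4-1 and 19.8% in cdk8-1. The part of the marker shifts in the LHCB1 and LHCB2 results was not tested.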

How the data were processed

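Polyadenylated RNA of 15 pools of rosettes was sequenced, and the authors deposited 1 table of raw read counts per gene. Per the submitters' processing notes, Trimmomatic, TopHat2 2.1.0, HTSeq 0.6.1 and edgeR were used with the TAIR10 build. No source used here gives the read length, counting mode or strand setting. The deposited counts were tested with edgeR 4.0.16 (quasi-likelihood test, TMM normalisation, the tool's default prior count) in R 4.3.3. All 5 genotypes entered 1 fit without a replicate block, on the 18935 genes above 1 CPM in 3 or more libraries, and p-values were adjusted over these genes by Benjamini-Hochberg with a threshold of 0.05. Each SE of a log2 fold change is its absolute value divided by the square root of the F statistic of its test. The interval given for LHCB1.3 uses the normal approximation. Rows that name no gene were left out. Relative to a library's gene counts, reads outside genes were 0.667% to 1.05%, ambiguous reads 1.63% to 6.67% and reads with several matches 2.37% to 6.62%. Libraries held 9573567 to 16803904 gene counts, and the median biological coefficient of variation was 6.73%. Each library is a separate pool of plants, and the p-values measure the spread between such pools.

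Normalised CPM are counts divided by TMM-scaled library sizes and set to the usual CPM scale. Sums of copies were added to the table as rows. Shares were compared by an exact permutation test. Sequences, coordinates and lengths were read from the TAIR10.1 assembly and its annotation, in which 32834 of 33601 IDs were found; coding alignments used Biopython 1.88. The fit was tested on simulated data in which few genes changed, up and down in equal number and in ref4-3 alone. That test does not cover changes as broad as those called here. The 8 genes and the gene lists were chosen with earlier results of these data known. Named beside the 8 were the 6 genes most and 3 least like them, any other antenna gene, GLK1, GLK2, HY5, CCA1 and LHY, and in each further list up to 4 called genes with the smallest adjusted p in ref4-3 against WT. CAO was named outside this rule, after its values were seen. Alternatives were other scalings, filters, DESeq2 1.42.0, limma 3.58.1 (voom), fits of only the groups compared, a replicate block and leaving out each library.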

Additional observations from a re-analysis of the deposited data

Results flagged for a closer look

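The effect of ref4-3 differed between the cdk8-1 and the WT background, by the interaction term of the edgeR quasi-likelihood fit, in 4 of the 8 genes and in 2 of their sums. Both sums are made of genes of the 8, and 5.13% of all genes were called. The interaction was 0.76 for LHCB1.1, 0.83 for LHCB1.2, 0.92 for LHCB2.1 and 0.89 for LHCB2.2 on the log2 scale. It was 0.84 for the LHCB2 sum (adjusted p = 0.000368) and 0.90 for LHCB2.1+LHCB2.2 (adjusted p = 0.000211). In LHCB2.2, ref4-3 changed the level by -0.49 in the cdk8-1 background and by -1.38 in the WT background.

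The same test passed for 7 of the 13 other antenna genes, against 5.13% of all genes. It gave 0.66 for LHCB3 (adjusted p = 0.00244), 0.59 for LHCA4 (adjusted p = 0.00239), 0.49 for LHCB4.2 (adjusted p = 0.00956), 0.44 for LHCA1 (adjusted p = 0.0192), 0.42 for LHCA3 (adjusted p = 0.0156) and 0.40 for LHCB5 (adjusted p = 0.0319). LHCB4.3 had a negative interaction of -0.64 (adjusted p = 0.0286): its log2 fold change for ref4-3 was 0.16 in the cdk8-1 background and 0.80 in the WT background. LHCB3 had log2 fold changes for ref4-3 of -0.59 in the cdk8-1 background and -1.26 in the WT background.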

How the results depend on the processing

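Of the alternatives run on the 8 genes, 1569 results kept direction and side of the threshold, 16 gained a call, 14 lost one and 1 changed sign, that of LHCB1.5 in ref4-3 cdk8-1 against WT (0.027 with library totals alone). These results include leave-outs of libraries outside the groups compared. Such leave-outs hardly move the log2 fold change and bear on a call mainly through the shared estimate of spread, so many results could hardly change. The LHCB1 sum in ref4-3 cdk8-1 against WT passed with DESeq2 size factors (-0.25), without a low-count filter (-0.24), with DESeq2 (-0.25), with limma voom (-0.24) and in a fit of only the groups compared (-0.24); leaving out 1 library gave -0.28 to -0.19, and it passed without ref4-1 library 1 or 3. The LHCB1 sum in ref4-3 against ref4-1 did not pass with only the groups compared (-0.39), and leaving out 1 library gave -0.50 to -0.25, with the call lost without ref4-3 library 3 (-0.35) and the smallest difference without ref4-1 library 3 (-0.25). The interaction of the LHCB1 sum passed with only the groups compared (0.33), and leave-outs gave 0.27 to 0.37, with a call without ref4-1 library 3. With only the groups compared, 4 of the 8 genes were lower in ref4-3 than in ref4-1, in place of 7. Over all genes that fit called 2552 in place of 3962 in ref4-1 against WT, and 637 in place of 2064 in ref4-3 against ref4-1 (930 without ref4-3 library 3). The interaction called 620, 540 and 626 in place of 971 without WT library 2, cdk8-1 library 2 and ref4-3 cdk8-1 library 1. Between genotypes, libraries with the same number had a mean correlation of deviations of 0.0137 (from -0.175 to 0.177). Those with different numbers had a mean of -0.00696 (from -0.247 to 0.190). Whether libraries with the same number shared a batch was not tested. A replicate block changed 1 call, that of LHCB1.1+LHCB1.2+LHCB1.3 in ref4-3 cdk8-1 against WT (-0.25, adjusted p = 0.0511). The cause of these shifts was not tested. The 3 libraries per genotype, reads that may be lost to close copies and the third ref4-1 library limit the smaller differences.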
